A study of Rattus norvegicus with 31 samples.

Results

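The Id genes Id1, Id2, Id3 and Id4 and 6 genes of the bone morphogenetic protein (Bmp) pathway, Bmp2, Bmp4, Bmpr1a, Bmpr2, Smad6 and Smad7, were described in irradiated rat testes under 3 hormone treatments. Members were found by gene symbol in the platform annotation: 21 probe sets of 31042 carried 1 of the 10 symbols, and each gene was represented by the probe set with its highest mean over the 31 arrays. All 10 of these main probe sets and 15 of the 21 passed the filter on low signals, which kept 21269 probe sets of 11387 genes. Main probe sets were selected on mean signal, and the 10 genes were chosen with earlier results for estradiol plus ablation against ablation in view, so their values in that comparison are given as a description with no p-value. The comparison of the same estradiol arrays with sham arrays shares those 6 arrays and is not independent of it.

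By the labels, every rat was of the genotype LBNF1, was 25 to 27 weeks old and had received 6 Gy to the lower abdomen, so no group shows the testis without irradiation by its title. The sham group had 14 arrays. The hormone ablation group had 11 arrays from rats given a GnRH antagonist, which stops the pituitary from driving the testis, and the androgen receptor antagonist flutamide. The estradiol group had 6 arrays from rats given GnRH antagonist, androgen receptor antagonist and estradiol, and its labels also name FSH supplementation. All 14 sham titles say irradiated, while 10 of the sham descriptions say control and 4 say irradiated. Whole-testis RNA was measured, so fewer cells of a type and less RNA per cell cannot be told apart. The labels call the arrays biological replicates but do not say how many animals each array represents.

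Bmps are secreted ligands that bind a pair of type I and type II receptor kinases, such as Bmpr1a and Bmpr2, which phosphorylate Smad1, Smad5 and Smad9. These enter the nucleus with Smad4 and bind the promoters of target genes, of which the Id genes are the best known. Id proteins have a helix-loop-helix but no DNA-binding region, and they hold back differentiation by binding E proteins. Smad6 and Smad7 are targets that feed back to inhibit the pathway. In the testis, Bmp4 has been described in Sertoli cells, and Id4 marks spermatogonial stem cells.

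The promoters of Id1 and Id3 are shown because these were the Id genes with the widest distance between estradiol and ablation arrays and with values that ran together across arrays. Each is the stretch from 250 to 41 bases before the start used in the RefSeq promoter table, read 5′ to 3′ on the + strand of GRCr8. The Id1 stretch is chr3:161671314-161671523 and the Id3 stretch is chr5:153656041-153656250, and both end before the first annotated base of the gene. Capitals mark matches, on either strand, to GGCGCC or GGAGCC (GC-rich Smad sites), GTCT (the short Smad box), AGGTCA (the repeat unit that the estrogen receptor and other nuclear receptors bind) and TATAAA.
Id1: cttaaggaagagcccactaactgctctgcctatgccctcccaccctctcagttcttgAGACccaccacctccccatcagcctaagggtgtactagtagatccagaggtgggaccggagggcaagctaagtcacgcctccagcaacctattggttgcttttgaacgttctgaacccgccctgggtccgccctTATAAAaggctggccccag
Id3: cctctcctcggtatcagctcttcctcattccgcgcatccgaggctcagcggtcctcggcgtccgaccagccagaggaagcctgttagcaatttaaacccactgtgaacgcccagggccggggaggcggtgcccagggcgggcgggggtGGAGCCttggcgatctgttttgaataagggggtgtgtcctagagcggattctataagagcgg
The Id1 stretch held GTCT, starting 193 bases before the start, and TATAAA, starting 59 bases before it. The Id3 stretch held GGAGCC, starting 102 bases before the start. Among the same 210-base stretches of all 33469 promoters in the table, 78.9% held GTCT, 19.5% GGAGCC, 7.00% GGCGCC, 11.8% AGGTCA and 10.5% TATAAA. Neither stretch held AGGTCA or the full palindromic estrogen response element (an inverted pair of such units), which 0.0239% of all promoters held, nor the paired Smad box GTCTAGAC, which 0.152% held and in which GTCT lies. The table had promoters for 8 of the 10 genes, and a match or its absence here describes these letters only.

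The treatments were visible in genes they are known to act on. Insl3, a Leydig cell hormone that depends on luteinizing hormone, was 4.49 ± 0.18 (SE) lower on the log2 scale in ablation than in sham arrays and a further 1.88 ± 0.23 lower with estradiol. Greb1, an estrogen-responsive gene, averaged 1.17 in sham, -1.93 in ablation and 1.05 in estradiol arrays. Insl3 exceeded the filter level in 3 of 6 estradiol arrays and Greb1 in 6 of 11 ablation arrays, so background limits the sizes of these differences. Spermatid RNA, taken as a Tnp1 signal above the filter level, was present in 3 of 14 sham, 3 of 11 ablation and 0 of 6 estradiol arrays. Prm1, a sperm protamine, exceeded that level in 6 of 14, 8 of 11 and 0 of 6. Arrays named below for spermatid RNA are those with Tnp1, so others with Prm1 are not among them. A second principal component over all kept probe sets held 11.1% of the variance. Its scores ran from -43.7 to 28.6 among sham arrays and from 8.77 to 48.3 among estradiol arrays. The estradiol arrays belong to a newer deposit than the other 25, so deposit and estradiol cannot be told apart.

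Id1 was higher with estradiol than in either other group, Id3 less so, and the other Id genes had smaller differences. Id1 stood at 1.63, 1.04, 1.40, 1.73, 1.87 and 0.96 in estradiol replicates 1 to 6, as log2 signal. The 11 ablation arrays ran from -0.04 to 1.00 with a median of 0.33, and the 14 sham arrays from -0.13 to 1.07 with a median of 0.62. Of the 6 estradiol arrays, 5 lay above every ablation array and 4 above every sham array, while ablation and sham overlapped almost throughout. The mean was 1.44 ± 0.37 (SD, n = 6) with estradiol, 0.42 ± 0.29 (n = 11) under ablation and 0.54 ± 0.35 (n = 14) in sham. Estradiol plus ablation exceeded ablation by 1.02 ± 0.16 (SE) on the log2 scale, a 2.03-fold difference, and exceeded sham by 0.89 ± 0.16. Ablation alone differed from sham by -0.12 ± 0.13, which did not pass the test (limma adjusted p = 0.556).

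Id3, a close relative of Id1 with the same role against E proteins, ran in the same order of group means. Its estradiol arrays read 1.18, 0.44, 0.83, 1.14, 1.40 and 0.61 in replicates 1 to 6. Ablation arrays ran from -0.29 to 0.55 with a median of 0.24, and sham arrays spread more widely, from -0.56 to 1.07 with a median of 0.44. In the estradiol group 5 of 6 arrays were above every ablation array, but only 3 were above every sham array. Means were 0.93 ± 0.37 (SD, n = 6), 0.19 ± 0.25 (n = 11) and 0.42 ± 0.54 (n = 14). The difference of estradiol plus ablation from ablation was 0.75 ± 0.20 (SE), or 1.68-fold, and that from sham was 0.51 ± 0.19 (limma adjusted p = 0.0691). Ablation differed from sham by -0.24 ± 0.16 (adjusted p = 0.326). Without estradiol replicate 5 the difference from ablation was 0.65.

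**Figure D1:**
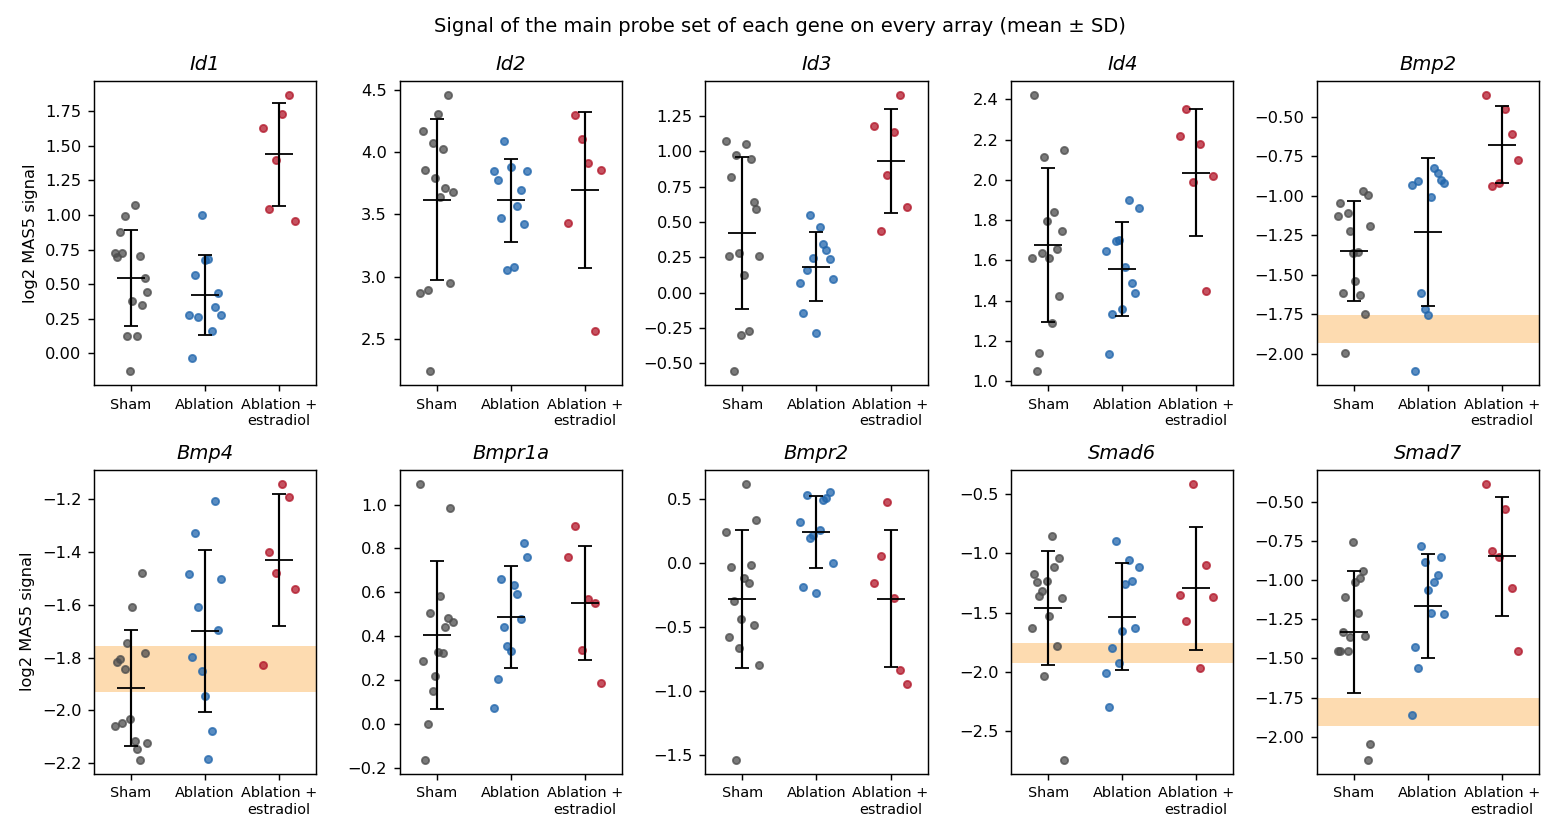
Log2 MAS5 signal of the main probe set of each of the 10 genes on every array, by group, with black bars for mean ± SD and an orange band, where in range, for the filter levels of the arrays (-1.93 to -1.75). Id1 in estradiol arrays lies between 0.96 and 1.87, while Bmp4 in sham arrays lies around the band.

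Id2, which is induced by Bmps in many cells, had a wide spread in all groups on its main probe set. Its signal ran from 2.24 to 4.46 in sham, from 3.05 to 4.09 in ablation and from 2.56 to 4.30 in estradiol arrays, so the groups overlapped throughout. Differences were -0.01 ± 0.20 (SE) for ablation against sham (limma adjusted p = 0.989), 0.08 ± 0.25 for estradiol plus ablation against ablation and 0.08 ± 0.24 for estradiol plus ablation against sham (adjusted p = 0.896). The intervals of these differences were wide, -0.43 to 0.60 at 95% for estradiol plus ablation against ablation. A second kept probe set of Id2 gave another picture: its ablation arrays, from -0.15 to 0.12, were all below the sham mean of 0.20. On it, 5 of 6 estradiol arrays were above every ablation array, with a difference of 0.31 ± 0.11, and ablation differed from sham by -0.22 ± 0.08 (adjusted p = 0.0587). The pair of Id2 probe sets correlated at r = 0.09 over 31 arrays, so which transcript or background each reads cannot be told from these values.

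Id4 stood at 2.22, 2.35, 1.99, 2.18, 1.45 and 2.02 in estradiol replicates 1 to 6. Its ablation arrays ran from 1.14 to 1.90 with a median of 1.57, and its sham arrays from 1.05 to 2.42 with a median of 1.65. Replicate 5, the highest estradiol array for Id1 and Id3, was the lowest for Id4, and the other 5 estradiol arrays were above every ablation array. The difference of estradiol plus ablation from ablation was 0.48 ± 0.16 (SE), and 0.52 both after quantile normalization and with array medians set equal. With the mean of its 4 probe sets it was 0.16. Against sham it was 0.36 ± 0.15 (limma adjusted p = 0.114), and ablation against sham gave -0.12 ± 0.12 (adjusted p = 0.558). The other 3 kept probe sets of Id4 differed by -0.14, 0.17 and 0.15 between estradiol plus ablation and ablation, all with standard errors above these values.

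Markers of undifferentiated spermatogonia, the cells that Id4 is known from, were read in the same comparisons. The marker lists were chosen with earlier results of these data known, so their adjusted p-values are descriptions. All 5 tested markers rose in ablation against sham, where Id4 differed by -0.12 ± 0.12 (SE). Of these markers, Ret and Sall4 exceeded the filter level in 0 of 14 sham arrays. In estradiol plus ablation against ablation 2 of 5 rose, Ret by 0.81 ± 0.22 (limma adjusted p = 0.0237) and Sox3 by 0.61 ± 0.16 (adjusted p = 0.013). Without estradiol replicate 1 these were 0.70 (adjusted p = 0.0887) and 0.46 (adjusted p = 0.0762), and Ret also lost its call without replicate 5 or 6. The mean signal of the 5 markers ran from -3.01 to -1.81 in sham, -1.64 to -0.93 in ablation and -0.97 to -0.40 in estradiol arrays, and Nanos3 was below the filter in every array. Of 6 meiotic and spermatid markers 1 was called lower in that comparison, Prm1, a sperm protamine, which exceeded the filter level in 8 of 11 ablation and 0 of 6 estradiol arrays. With values under that level raised to it, Prm1 differed by -2.06 and was not called (adjusted p = 0.226). The mean of the 6 ran from -3.86 to 2.17 in sham, -3.16 to 0.52 in ablation and -3.11 to -2.51 in estradiol arrays. Without the arrays with Tnp1 above the filter level, Id1 differed by 1.06 and Id3 by 0.82 between estradiol plus ablation and ablation. This left out 3 of 11 ablation arrays, so ablation arrays with Prm1 above that level stayed in. None of the 8 endothelial, 7 Sertoli, 6 myoid or 8 macrophage markers passed the test in that comparison, and of 7 Leydig markers 3 fell. In ablation against sham 4 of 7 Sertoli markers rose, while 6 of 8 macrophage, 3 of 6 myoid and 2 of 8 endothelial markers fell. Of 7 Leydig markers 5 fell and 2 rose in ablation against sham. Beside these counts, 9.23% of all genes were called higher and 12.8% lower in that comparison. The shares were 0.729% and 2.73% in estradiol plus ablation against ablation, and 5.28% and 11.9% in estradiol plus ablation against sham. Of 7 proliferation genes 0 passed between estradiol plus ablation and ablation. Of these 7, 3 rose in ablation against sham and 5 in estradiol plus ablation against sham. The part of these cell type markers in the Id, receptor and other pathway values was not tested.

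Id1 and Id3 were high on the same arrays. Over the 31 arrays they correlated at r = 0.72, and at 0.58 after each group's mean was subtracted. Within groups the values were 0.64 over 14 sham arrays, 0.07 over 11 ablation arrays and 0.96 over 6 estradiol arrays, so the ablation arrays did not share the pattern. Id1 and the main Id2 probe set went opposite ways, at -0.57 after the group means were subtracted. These correlations are descriptions, and the points share array quality and cell makeup.

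**Figure D2:**
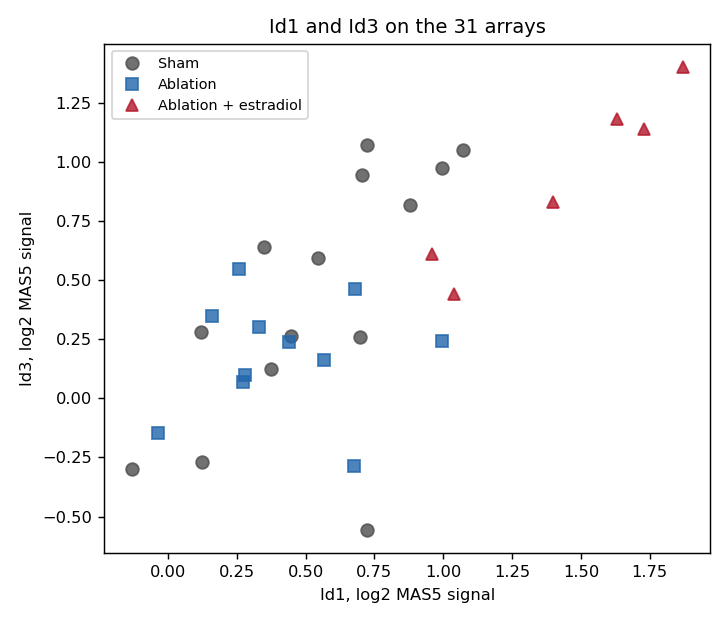
Log2 MAS5 signal of Id3 against Id1 on the 31 arrays, 1 point per array, with circles for sham, squares for ablation and triangles for estradiol plus ablation. The 6 estradiol triangles run upward together from Id1 at 0.96 to Id1 at 1.87, and all lie to the right of the ablation squares except where ablation replicate 5 reaches 1.00.

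The genes most like each Id gene over the 31 arrays were taken by Pearson correlation among 11273 candidate genes. For Id1 they were Trib2 (r = 0.78, and 0.55 after group means were subtracted), Id3 (0.72) and Patj (0.70). For Id3 they were Dmac2, Golph3 and Tank, at 0.75, 0.74 and 0.74. The main Id2 probe set ran with Kpna1, Ythdf2 and Dync1li1 at 0.92, 0.89 and 0.88, and these were 0.95, 0.95 and 0.90 after the group means were subtracted, so the likeness lay within the groups. Id4 ran with Ahcyl2, Serpinb9 and Lum at 0.83, 0.83 and 0.80. For Bmp2 the nearest were Ets1, Fbxo30 and Smurf2 (0.77, 0.77 and 0.75), for Bmp4 PCOLCE2, Bfsp1 and Vstm2l (0.65, 0.63 and 0.62), and for Bmpr2 Tpr, Fam149b1 and Atp2b1 (0.74, 0.69 and 0.69).

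Among the ligands, Bmp2 and Bmp4 had low signals and were highest with estradiol. Bmp2 read -0.36, -0.94, -0.92, -0.45, -0.61 and -0.77 in estradiol replicates 1 to 6. Sham arrays ran from -2.00 to -0.97 with a median of -1.29, so all 6 estradiol arrays lay above every sham array, a separation that 0.834% of all genes had in this direction. Ablation arrays fell apart, 4 between -2.11 and -1.61 and 7 between -1.01 and -0.82, and 4 of 6 estradiol arrays were above all of them. Bmp2 rose by 0.67 ± 0.18 (SE) in estradiol plus ablation against sham, or 1.60-fold (limma adjusted p = 0.0064). It differed by 0.56 ± 0.18 from ablation, and ablation from sham by 0.12 ± 0.15 (adjusted p = 0.627). With the mean of its probe sets, 1 of them below the filter level in every array, the latter was 0.70 (adjusted p = 0.0173). Against the 4 sham arrays described as irradiated alone, Bmp2 with estradiol differed by 0.55 (adjusted p = 0.189) and Bmp4 by 0.46 (adjusted p = 0.225).

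Bmp4 read -1.83, -1.40, -1.48, -1.14, -1.19 and -1.54 in estradiol replicates 1 to 6. It was near the filter level elsewhere: 6 of 14 sham arrays, from -2.19 to -1.48, and 8 of 11 ablation arrays, from -2.19 to -1.21, exceeded it, against 6 of 6 with estradiol. The rise of 0.48 ± 0.15 (SE) in estradiol plus ablation against sham passed the test (limma adjusted p = 0.0243), and it was 0.36 when values under the filter level were raised to it. Without estradiol replicate 4 or 5 it was 0.43 or 0.44 and no longer passed (adjusted p = 0.0799 and 0.0718). Against ablation the difference was 0.27 ± 0.16, and ablation differed from sham by 0.22 ± 0.12 (adjusted p = 0.241).

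Of the receptors, Bmpr2 had its highest mean under ablation, while the groups overlapped throughout for Bmpr1a. Bmpr2, the type II receptor, ran from -0.23 to 0.56 with a median of 0.26 in ablation arrays, and all 11 exceeded the sham mean. Sham arrays spread from -1.54 to 0.62 with a median of -0.23. Bmpr2 rose by 0.52 ± 0.17 (SE) in ablation against sham, or 1.44-fold (limma adjusted p = 0.029), the only member called in that comparison. That call is narrow: without ablation replicate 3, 9 or 10 the adjusted p was 0.052, 0.0503 or 0.0508. Without the arrays with Tnp1 above the filter level the change was 0.46 with an adjusted p of 0.144. Against the 4 sham arrays described as irradiated alone it was 0.48 (adjusted p = 0.157), and with the mean of its probe sets 0.40 (adjusted p = 0.225). Estradiol arrays read -0.15, 0.06, 0.48, -0.27, -0.83 and -0.94, with 3 of 6 below every ablation array. Their mean, -0.28 ± 0.54 (SD, n = 6), was close to the sham mean of -0.28 ± 0.54 (n = 14), with a difference of 0.00 ± 0.21 (SE; 95% interval -0.42 to 0.43, adjusted p = 0.997). Against ablation they differed by -0.52 ± 0.22.

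Bmpr1a, a type I receptor, ran from -0.16 to 1.10 in sham, 0.08 to 0.82 in ablation and 0.19 to 0.90 in estradiol arrays. The groups overlapped throughout, with medians of 0.38, 0.48 and 0.56. The differences were 0.08 ± 0.11 (SE) for ablation against sham (limma adjusted p = 0.682), 0.06 ± 0.14 for estradiol plus ablation against ablation (95% interval -0.23 to 0.35) and 0.14 ± 0.14 for estradiol plus ablation against sham (adjusted p = 0.572).

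The inhibitory Smads had low signals, and neither was called in the fit of all 31 arrays. Smad7 read -0.38, -0.81, -0.85, -0.54, -1.05 and -1.45 in estradiol replicates 1 to 6, against medians of -1.06 in ablation (from -1.86 to -0.78) and -1.34 in sham arrays (from -2.15 to -0.75). The estradiol arrays overlapped both other groups, with 2 of 6 above every other array. Smad7 differed by 0.48 ± 0.18 (SE) in estradiol plus ablation against sham (limma adjusted p = 0.0622). That difference was called under 7 of 16 other settings and 3 of 20 fits with 1 array left out, with adjusted p from 0.0241 to 0.26 over all of these. Against the 4 sham arrays described as irradiated alone it was 0.78 (adjusted p = 0.0441). Smad7 differed by 0.32 ± 0.18 from ablation and, for ablation against sham, by 0.16 ± 0.15 (adjusted p = 0.483). A second kept probe set of Smad7 differed by -0.02 ± 0.33 between estradiol plus ablation and ablation. On it, ablation differed from sham by 0.60 ± 0.26 (adjusted p = 0.105) and estradiol plus ablation from sham by 0.58 ± 0.32 (adjusted p = 0.251). It exceeded the filter level in 16 of 31 arrays and correlated with the main probe set at r = 0.03. Smad6 ran from -2.75 to -0.85 in sham, from -2.30 to -0.90 in ablation and from -1.97 to -0.41 in estradiol arrays, overlapping throughout. Its differences were -0.08 ± 0.18, 0.24 ± 0.23 and 0.16 ± 0.22 in the same 3 comparisons, ablation against sham first, with adjusted p of 0.825 for the first and 0.714 for estradiol plus ablation against sham. The other 3 Smad6 probe sets exceeded the filter level in at most 2 arrays each.

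**Figure D3:**
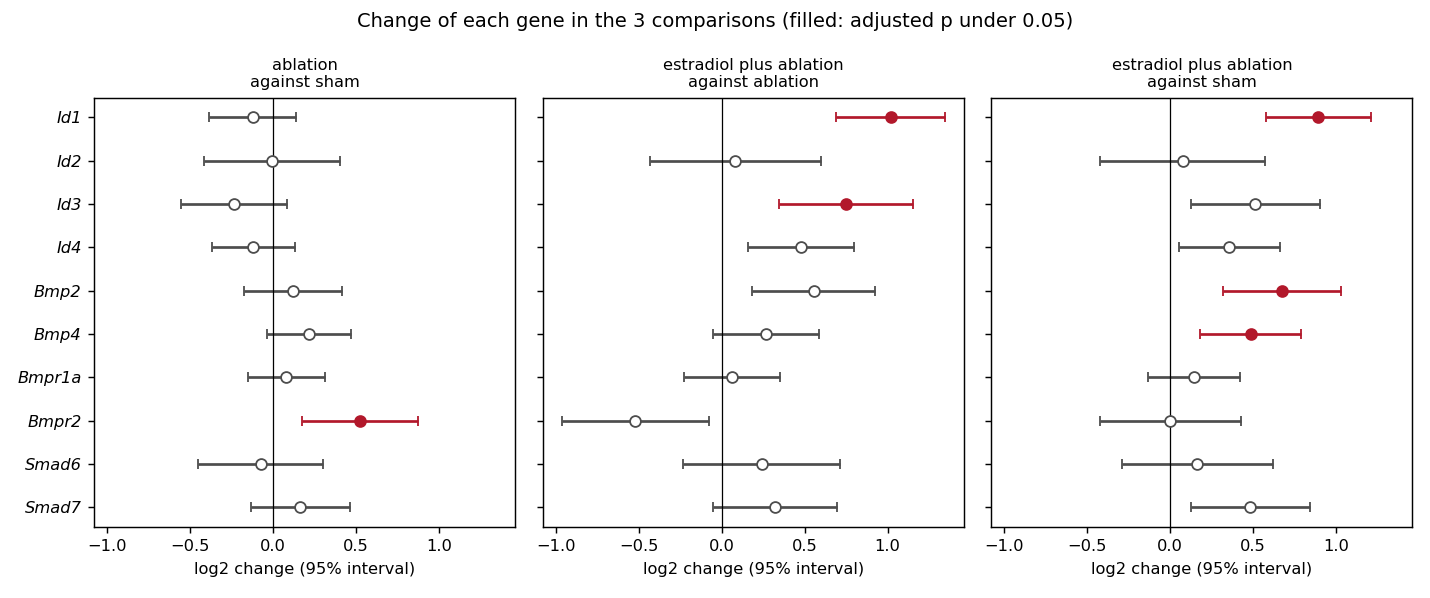
Log2 change of each of the 10 genes with its 95% confidence interval in the 3 comparisons, filled where the limma adjusted p was under 0.05. Filled points are Bmpr2 on the left, Id1 and Id3 in the middle, and Id1, Bmp2 and Bmp4 on the right. The genes were chosen with the middle comparison in view, so filling there describes that choice and is no test. The right comparison uses the same estradiol arrays and is not independent of it.

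As counts, 1 of 10 genes was called higher in ablation against sham, where 9.23% of all 11387 genes were called higher and 22.1% were called in either direction. Between estradiol plus ablation and ablation 2 of 10 were called higher, where 0.729% of all genes were, and that count describes the choice of genes. In estradiol plus ablation against sham 3 of 10 were called higher, against 5.28% of all genes. This count rests on the same estradiol arrays and is not independent of that choice. None of the 10 was called lower, as 12.8%, 2.73% and 11.9% of all genes were in the 3 comparisons. The median change of the 10 was 0.04, 0.29 and 0.42 in the order of these comparisons, beside 0.00, -0.02 and -0.03 over all genes. The medians with estradiol carry the same choice of genes. Of 1173 probe sets called between estradiol plus ablation and ablation, 10.7% were higher, a share that was 24.0% after quantile normalization and 20.1% after centring. The share higher in estradiol plus ablation against sham was 28.5%, and 47.2% after quantile normalization.

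Some members also followed the second component, which differed both within and between groups. Turned so that estradiol arrays are high, its median was -16.3 in sham, 1.83 in ablation and 15.1 in estradiol arrays. Over 31 arrays Bmpr1a correlated with it at r = 0.75, Bmp2 at 0.72, Id3 at 0.65 and Id1 at 0.58, and the main Id2 probe set at -0.45, while 13.4% of all genes had r over 0.5. Because the component differed between groups, using it as a covariate can take up part of a group difference. With this component as a covariate, the difference between estradiol plus ablation and ablation was 0.86 for Id1 and 0.45 for Id3. Bmp2 in estradiol plus ablation against sham was then 0.31 (limma adjusted p = 0.203). With the 6 arrays most extreme on the first 3 components left out, these were 0.88 and 0.54.

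**Figure D4:**
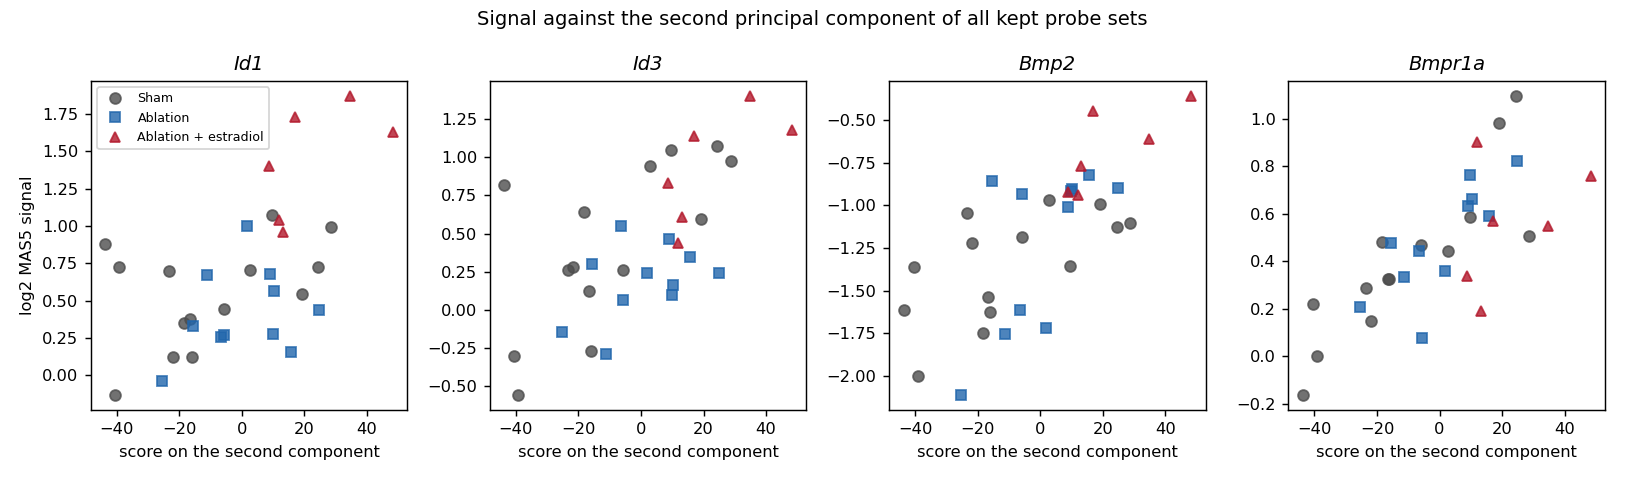
Log2 MAS5 signal of Id1, Id3, Bmp2 and Bmpr1a against the score on the second principal component of all kept probe sets, 1 point per array. Signal runs upward with the score (r = 0.58, 0.65, 0.72 and 0.75), and Id1 in estradiol arrays lies above most other arrays at like scores.

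The wider pathway was read from a list of 59 further genes with these roles, of which 36 were tested. In ablation against sham 4 rose and 3 fell, in estradiol plus ablation against ablation 1 rose and 0 fell, and in estradiol plus ablation against sham 7 rose and 3 fell. These are 19.4%, 2.78% and 27.8% of the 36, beside 22.1%, 3.46% and 17.2% of all genes called. Their median changes were 0.09, 0.04 and 0.17. The last comparison shares its arrays with the other two.

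Other ligands moved with ablation in opposite directions. Bmp6 ran from 0.47 to 0.95 in sham arrays and from -0.35 to 0.08 in ablation arrays, with no overlap, and fell by 0.95 against sham under ablation and by 0.99 with estradiol added. Bmp7 rose by 0.53 and 0.91 in these comparisons. Among receptors, Acvr1, a type I receptor, rose by 0.39 and 0.45, and Acvr2b, a type II receptor, by 0.97 and 0.94. Acvr2b exceeded the filter level in 4 of 14 sham arrays, and with values under it raised to it the changes were 0.56 and 0.48. The second Acvr1 value lost its call without estradiol replicate 1, 2 or 4. The receptor-activated Smad1 and Smad5 and the shared Smad4 did not pass the test in any comparison, and Smad9 rose by 0.52 in estradiol plus ablation against sham (limma adjusted p = 0.0419). Smad9 exceeded the filter level in 5 of 14 sham arrays, and its call was lost in 10 of 20 fits with 1 array left out.

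Of the antagonists, Bambi, a decoy receptor, rose by 0.35 in ablation against sham and 0.31 in estradiol plus ablation against sham, the latter not called without estradiol replicate 1, 3, 4 or 6. Fstl3, which binds activins and Bmps, fell by 0.53 and 0.50. Sostdc1, a secreted antagonist, fell by 0.62 under ablation, where 6 of 11 arrays exceeded the filter level, and by 0.35 with values raised to that level. Fst, follistatin, fell by 0.38 in estradiol plus ablation against sham, a call lost in 13 of 20 fits with 1 array left out. Nog, Grem1, Chrdl1, Bmper and Sost were below the filter level in every array.

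Among the other targets, Hes1 was the single gene of the 36 called between estradiol plus ablation and ablation. The lists were chosen with earlier results of these data known, so the adjusted p-values given here are descriptions. Hes1, a repressor better known as a Notch target, ran from 1.40 to 1.95 in estradiol, 0.78 to 1.48 in ablation and 0.48 to 1.47 in sham arrays. It rose by 0.50 ± 0.12 (SE; limma adjusted p = 0.0059) against ablation and 0.52 ± 0.11 against sham. Atoh8 rose by 0.88 in estradiol plus ablation against sham (adjusted p = 0.0115), but it exceeded the filter level in 4 of 14 sham arrays, and with values raised to that level the rise was 0.48. Msx2, a homeobox target of Bmps, differed by 1.52 from ablation and missed the threshold (adjusted p = 0.0703). The 8 targets that are not members had a median change of 0.40 in this comparison, beside -0.02 over all genes.

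**Figure D5:**
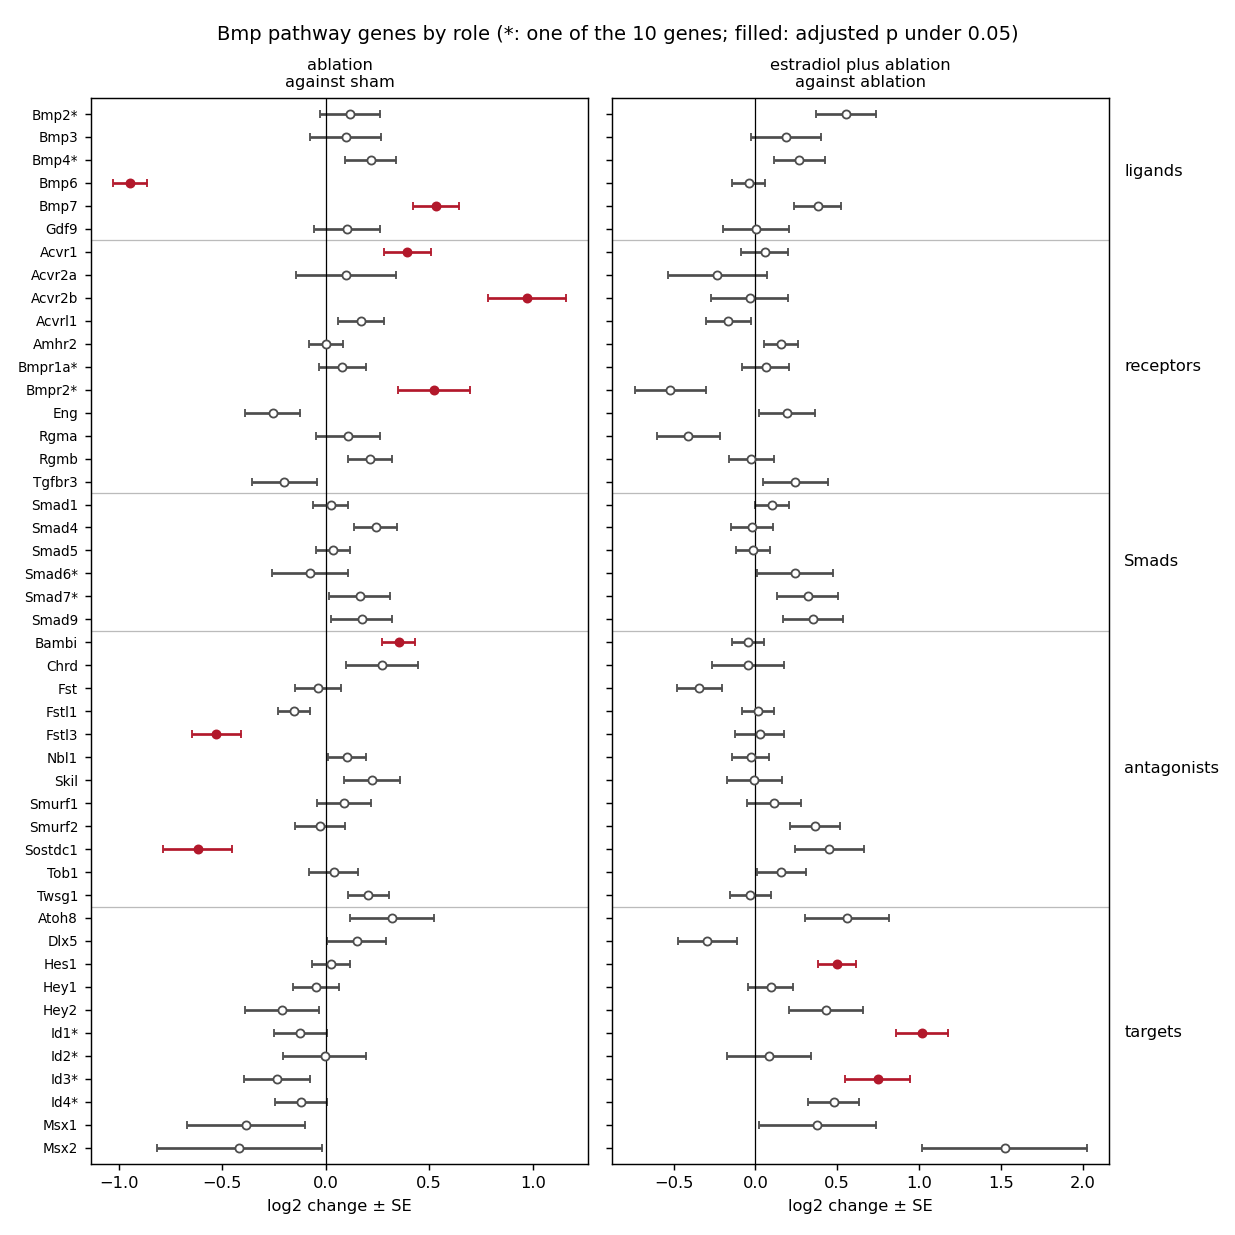
Log2 change ± SE of each tested pathway gene by role in ablation against sham (left) and in estradiol plus ablation against ablation (right), with an asterisk for the 10 genes and filled points where the limma adjusted p was under 0.05. On the right only Hes1, Id1 and Id3, all in the target group, are filled, and for Id1 and Id3 this describes the choice of genes. The list with Hes1 was also chosen with earlier results known. On the left Bmp6 lies lowest at -0.95 and Acvr2b, mostly under the filter level in sham arrays, lies at 0.97.

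Neighbouring pathways and Id partners were given for reference. Of 5 tested genes of the Tgf-beta and activin branch, Smad3 rose by 0.45 and Tgfb2 fell by 0.65 in ablation against sham. Without ablation replicate 9 the change of Tgfb2 was -0.39 (limma adjusted p = 0.0111). Smad3 also rose by 0.54 in estradiol plus ablation against sham. Of 6 tested partners and targets of Id proteins, Hes1 was the single call in the comparisons with estradiol, and none was called in ablation against sham. The E protein gene Tcf3 was below the filter level in every array.

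The sham arrays allowed a contrast that the choice of genes did not use, the 4 described as irradiated against the 10 described as control. None of the 10 genes was called, with changes from -0.41 (Smad7) to 0.27 (Id3) and adjusted p of 1.00 or just under it. In limma over all 21269 probe sets none was called either, and 513 (2.41%) had an unadjusted p under 0.05, none of them a main probe set of the 10 genes. For Id1 the difference was -0.05 ± 0.20 (SE; 95% interval -0.46 to 0.36).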

How the data were processed

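Whole-testis RNA of 31 rat samples was measured on Affymetrix arrays. The deposited values are MAS5 signals on a log scale, made with MAS5 per the submitters' processing notes. These deposited values were taken as log2, as the authors' scaling is not stated, since the widest range within 1 array was 19.3 units. The base, the scaling reference and the MAS5 version are not given in the sources used here, so folds rest on that reading. The 6 estradiol arrays are given to 2 decimals.

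The analysis excluded 57 control probe sets and required a signal above the array's 40th percentile (-1.93 to -1.75) in at least 6 arrays. Symbols came from the platform annotation: 20826 probe sets had 1 symbol, 436 several and 9780 none. No probe's level was set against another's. Groups were compared in 1 limma 3.58.1 fit over 31 arrays in R 4.3.3 (variance trend, 2-sided, Benjamini-Hochberg over 21269 probe sets, threshold 0.05), tested on simulated data. The number of arrays limits the precision. The spread is that between these samples.

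Members, lists and naming rules were chosen with earlier results of these data known. All 10 members are named, with up to 4 called genes per list and comparison, and 3 most correlated genes for each Id gene and each other called member. Msx2, Smad1, Smad4, Smad5, the marker genes and the genes below the filter were named after their values were seen. Samples were not paired by replicate number in the main fit. Same-numbered deviations correlated at -0.086 to 0.047 (ablation and sham), -0.18 to 0.059 (estradiol and ablation) and -0.011 to 0.38 (estradiol and sham). Of the estradiol and sham pairs 3 of 6 were over 0.1, and 6 of 12 arrays correlated best with their own number. Alternatives covered filters, scaling, fit, probe set choice, sham subsets and single arrays; those on spermatid RNA, component ends, rounding and the component covariate, and those on named pathway genes, were added after seeing the data. Promoter sequences are from RefSeq, GRCr8.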

Additional observations from a re-analysis of the deposited data

Results flagged for a closer look

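Bmpr1a in sham replicate 13, 1 of the 4 sham arrays described as irradiated, read 0.98 as log2 signal, far from the other 3, which lay between 0.44 and 0.48. The gap to the nearest was 0.926 of the whole range of the 4. Of 30 groups examined this was the only such value. Chance gives about 1 such value in 20 groups, so 1 flag among 30 is not unusual. Sham replicate 1, described as control, read higher at 1.10.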

How the results depend on the processing

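Between estradiol plus ablation and ablation Id1 differed by 0.86 to 1.11 over all alternatives, a range that describes a gene chosen with this comparison in view. The number of the 10 genes called in ablation against sham was 1, but 0 when sham was limited to the arrays with an irradiated description or without arrays with spermatid RNA, 2 with the second component as a covariate, and 0 to 1 when single arrays were left out. Between estradiol plus ablation and ablation it was 2, a count that describes the choice of genes. There it was 4 after quantile normalization or median centring, and 1 without arrays at component ends or with the covariate. It was 2 throughout when single arrays were left out. In estradiol plus ablation against sham it was 3, but 6 after quantile normalization, 5 after centring or with array weights, and 2 to 5 when single arrays were left out; without sham replicate 11 it was 5, Id3 and Smad7 being added. With the replicate number as a block the counts were 1, 3 and 2, and in estradiol plus ablation against sham Bmp4 was 0.46 (limma adjusted p = 0.178, with 0.0065 to 0.225 over its alternatives). The numbers did not meet the rule for pairing, as 0, 0 and 3 of the pairs correlated over 0.1. Over all probe sets the block gave 2747, 596 and 2022 calls, against 4128, 1173 and 3093. Between sham and estradiol arrays 6 of 12 arrays correlated best with their own number.

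The mean of probe sets left the count at 1 in ablation against sham with Bmp2 called in place of Bmpr2. Changes of sign follow, and their cause was not tested. In ablation against sham Id2 became 0.056 (quantile), 0.014 (block), 0.026 (only control-described sham), 0.11 (no spermatid arrays) and 0.16 (covariate). There, with only irradiated-described sham, Bmp2 was -0.0065, Smad6 0.20 and Bmpr1a -0.11; with the covariate Bmp2 was -0.00089 and Bmpr1a -0.042; without component ends Smad6 was 0.055. Between estradiol plus ablation and ablation Bmpr1a was -0.034 without component ends and -0.18 with the covariate. In estradiol plus ablation against sham Bmpr2 was -0.64 with the mean of probe sets, -0.038 with irradiated-described sham, -0.033 without spermatid arrays and -0.071 with the covariate; Id2 was -0.0046 and Bmpr1a -0.042 with irradiated-described sham, and Bmpr1a -0.23 with the covariate. Between sham descriptions Id4 was -0.0043 after quantile normalization.

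Leaving out single arrays gave, for ablation against sham, Id2 -0.11 to 0.058; against ablation, Id2 -0.039 to 0.31 and Bmpr1a -0.0063 to 0.14; for estradiol plus ablation against sham, Id2 -0.045 to 0.30, Smad6 -0.012 to 0.30 and Bmpr2 -0.15 to 0.13. Between sham descriptions Id1 ran from -0.12 to 0.0093, Id2 from -0.14 to 0.36, Id4 from -0.042 to 0.20, Bmp4 from -0.11 to 0.13 and Bmpr2 from -0.14 to 0.24. A filter at the 60th percentile left no value for Bmp4 and Smad6. Signals of Bmp2, Bmp4, Smad6 and Smad7 lie near the filter level, where background limits them.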
